A study of Rattus norvegicus with 16 samples.

Results

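The regions described here are sites on rat RNA that were protected by protein in both lists from neurons treated with N-methyl-D-aspartate (NMDA) and in neither list from control neurons. They were chosen by presence in the 4 deposited lists of protein-protected sites (PPS) alone. PPS of all lists that shared at least 1 bp on the plus strand of chromosomes 11, 12, 16, 17, 18, 19 or 20 were joined into a site. A site was kept when both NMDA lists contributed to it and no control list did. The rule kept 620 of the 19793 sites on these chromosome strands, which is 3.13% of them. Because presence with NMDA and absence without it defined these sites, their number is given as a description and nothing is read from it. Here they are called NMDA-only sites.

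The cells were primary cortical neurons from Sprague–Dawley rat embryos of day 18, cultured either as controls or with 10 µM NMDA. The labels mention cultures of 15 or 21 days and exposures of 4 or 24 hours without saying which apply to these libraries. They also mention purified nuclei from tissue, and it is not settled whether the RNA was nuclear or that of whole cells. Each of the 4 lists joins 4 libraries of 1 replicate, 2 lists per treatment, numbered 2 and 3 in both. No gene names accompany the lists, so the labelled cell type was not checked against its markers and regions are named by position in the rn6 build.

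NMDA is an agonist of one class of ionotropic glutamate receptor, a calcium-permeable channel at excitatory synapses, and excess stimulation of it injures neurons (excitotoxicity). RNA-binding proteins govern splicing, transport, stability and translation of neuronal RNA, and each covers a short stretch of it. Protein interaction profile sequencing finds such stretches by digesting crosslinked RNA with RNase before or after the protein is removed. The ssRNase of the study cuts unpaired RNA and its dsRNase, RNase V1, cuts base-paired RNA, so the RNase recorded for a PPS says in which digestion the protection was seen.

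On the 7 strands, control replicate 2 held 8777 PPS, control replicate 3 held 8903, NMDA replicate 2 held 9189 and NMDA replicate 3 held 9523. Across the whole series some lists share many PPS of identical position and score, mostly across treatments. Control replicate 2 shared 14998 with NMDA replicate 3, and control replicate 3 shared 11100 with NMDA replicate 3. Both NMDA lists shared 1061 and both control lists 7. On the 7 strands each pair of lists shared between 0 and 9, and both NMDA lists shared 2. Read depth is unknown, since the lists carry no read counts, and no label says that replicates were separate cultures. In these bulk lysates fewer cells of a type and less RNA per cell cannot be told apart. With 2 lists per treatment, the smallest two-sided exact permutation p is 0.33.

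The 2 NMDA lists shared fewer private sites than 3 of the 5 other pairings of lists did. Any 2 of the 4 lists can hold sites that the remaining lists lack, which makes 6 pairings. Both NMDA lists had 620 such sites, and both control lists had 585, or 2.96% of all sites. The pairings that mix treatments had 826 for control replicate 2 with NMDA replicate 2, 796 for control replicate 3 with NMDA replicate 3, 842 for control replicate 2 with NMDA replicate 3 and 527 for control replicate 3 with NMDA replicate 2. NMDA-only sites were thus fewer than those of 3 mixed pairings and more numerous than those of the fourth. In relation to all 3557 sites found in both NMDA lists, 17.4% were missing from both control lists. The corresponding share was 18.3% for the control pair and 17.5% to 23.7% for the mixed pairs. Of the remaining sites found in both NMDA lists, 951 were also in control replicate 2 alone, 447 in control replicate 3 alone and 1539 in both control lists.

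**Figure D1:**
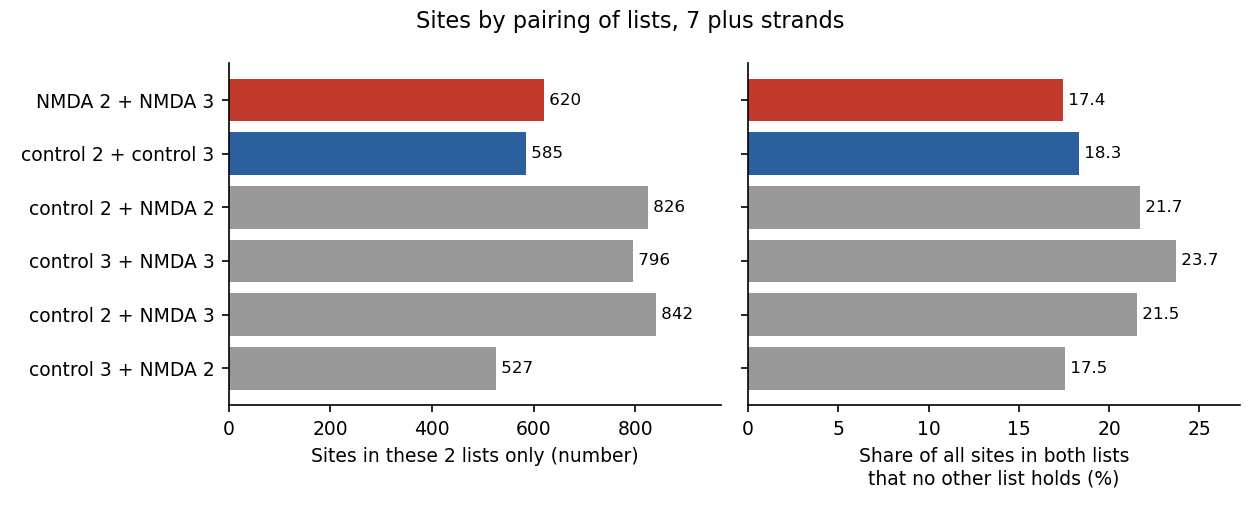
Left, number of sites held by exactly the 2 lists named and by neither of the others; right, the same number as a percentage of all sites found in both named lists. Bars are single counts with no replicate error, numbers in the labels are replicate numbers, and the 620 NMDA-only sites (red) lie within the range of the other pairings, 527 to 842.

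NMDA-only sites were spread over all 7 chromosomes, with the highest share on chromosome 17. There, 135 of 3553 sites (3.80%) were NMDA-only and 81 (2.28%) were control-only, that is, in both control lists and no NMDA list. Chromosome 16 followed with 115 of 3504 sites (3.28%) against 96 control-only sites (2.74%). Chromosome 12 stood at the other end, with 70 of 2744 sites NMDA-only (2.55%) and 105 control-only (3.83%). On chromosomes 11, 18, 19 and 20 there were 77, 81, 76 and 66 NMDA-only sites beside 66, 92, 82 and 63 control-only ones. Shares of NMDA-only sites thus ran from 2.55% to 3.80% over the chromosomes, around the 3.13% of the whole. The lead of chromosome 17 was not particular to them. It also had the highest share for control replicate 2 with NMDA replicate 2 (5.15%) and control replicate 3 with NMDA replicate 3 (4.62%). Control replicate 2 with NMDA replicate 3 was highest on chromosome 19 (5.40%), and control replicate 3 with NMDA replicate 2 on chromosome 20 (3.55%).

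**Figure D2:**
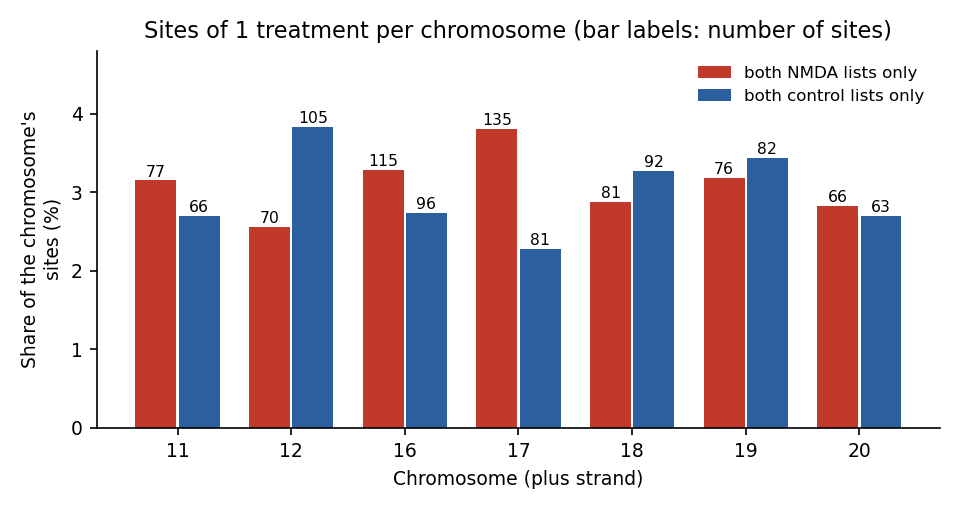
Share of each chromosome's plus-strand sites that were NMDA-only (red) or control-only (blue), in percent, with the number of sites above each bar and no replicate error. Chromosome 17 has the tallest red bar (3.80%) and chromosome 12 the tallest blue bar (3.83%).

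The sites were short and of the size seen in the other pairings. Their median length was 65 bp, with quartiles of 51 and 86 bp and a range from 11 to 240 bp. Control-only sites also had a median of 65 bp, and the mixed pairings lay between 62 and 69 bp. A length of at least 100 bp was reached by 92 NMDA-only sites (14.8%) and 68 control-only sites (11.6%). Sites found in all 4 lists were longer, with a median of 130 bp, and those with a PPS in both NMDA lists plus 1 control list had medians of 91 and 88 bp. More lists can only lengthen a joined site, so these lengths are not on equal terms.

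Inside an NMDA-only site the footprints of both replicates mostly lay on top of each other. In 602 of 620 sites each list contributed a single PPS. Protected length per site was a median of 50 bp in NMDA replicate 2 (8 to 196 bp) and 50 bp in NMDA replicate 3 (8 to 224 bp). A median of 35 bp was covered by both. The shorter footprint lay wholly within the longer in 336 sites (54.2%), against 52.6% of control-only sites. Both lists gave exactly the same span in 5 sites. At the other extreme, 25 sites (4.03%) rested on fewer than 10 shared bases, compared with 35 control-only sites (5.98%).

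The longest NMDA-only site was on chromosome 18 from 40542099 to 40542338, 240 bp. Its 2 PPS in NMDA replicate 2 covered 196 bp from dsRNase with a top score of 15.28, and its 2 PPS in NMDA replicate 3 covered 224 bp from ssRNase with a top score of 47.77. A PPS of control replicate 3 was 55 bp away, whereas the nearest one of control replicate 2 was 53741 bp away. Next in length were chromosome 18 from 71312664 to 71312838 (175 bp) and chromosome 17 from 10413961 to 10414129 (169 bp), both from ssRNase in both lists. All 3 long sites had a control PPS within 122 bp.

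Scores, the submitters' own value per peak with no stated scale, were low at most NMDA-only sites. The score of a site in a list is the highest of its peaks there. In NMDA replicate 2 scores ran from 4.43 to 46.33 with a median of 6.82, below that list's median of 7.43. In NMDA replicate 3 they ran from 5.40 to 47.77 with a median of 6.82, equal to the list's median. The lower of the 2 scores was 5.61 or less in 422 sites (68.1%), and 205 of these stood at exactly 5.61. It was 10 or more in 12 sites (1.94%). The lower score sets raw values of 2 lists beside each other, whose scales were not shown to be equal. The 90th percentiles of all scores were 13.5 in NMDA replicate 2 and 13.7 in NMDA replicate 3.

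Ranked within each list, these sites sat in the lower middle. Their median percentiles were 43.4 for NMDA replicate 2 and 49.1 for NMDA replicate 3. Sites shared by all 4 lists had medians of 78.2 and 76.0 in the same lists. They were also longer, and a site's score is its highest peak, so score comparisons with them are not on equal terms. Both scores ranked above the middle of their list in 126 NMDA-only sites (20.3%). The share was 16.1% for control-only sites and 21.5% to 28.1% in the mixed pairings. Tied scores shared a mean rank, so lists differ here. A score equal to the list's median ranked above the middle in NMDA replicate 2 (percentile 58.5) and control replicate 3 (58.7). In NMDA replicate 3 it did not (49.1). Both scores lay in the top 10% of their list in 6 NMDA-only sites (0.968%) and 1 control-only site (0.171%). The mixed pairings ranged from 0.503% to 2.85%, so NMDA-only sites lay within the range of the other pairings. Among sites of all 4 lists both NMDA scores did so in 10.5%. Scores in the 2 NMDA lists were weakly related over the 620 sites (Spearman's rho 0.075, Pearson's r 0.148 of log2 scores). These coefficients are descriptions across sites of the same 2 lists, and neighbouring sites are not independent.

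**Figure D3:**
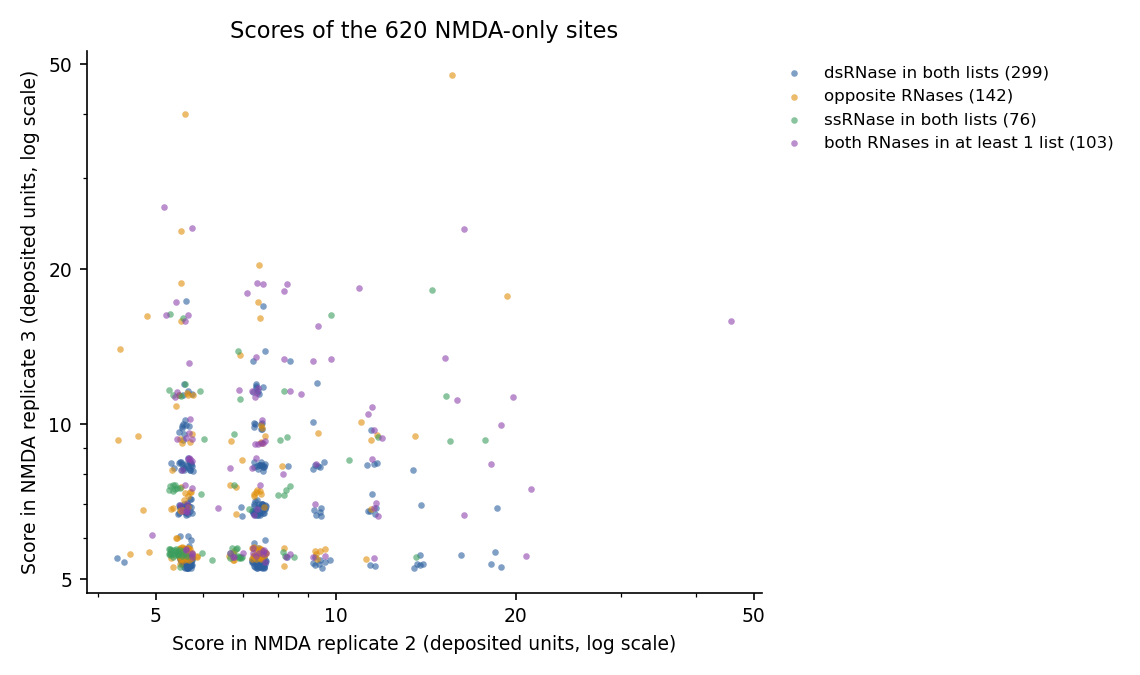
Score of each of the 620 NMDA-only sites in NMDA replicate 2 (x axis) and NMDA replicate 3 (y axis), both in deposited units on log scales, coloured by the RNase of the PPS in both lists, with points jittered by up to 0.04 log2 units since scores repeat. Most sites crowd at low scores in both lists, and 12 have 10 or more in both.

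High scores in both lists marked a small group of sites. One was taken from each chromosome, by the higher of its lower scores. On chromosome 18, positions 56047249 to 56047354 scored 19.36 from dsRNase in NMDA replicate 2 and 17.65 from ssRNase in NMDA replicate 3, with 72 bp of the 106 bp protected in both. Its nearest control PPS was 1859 bp away. On chromosome 17, positions 63487999 to 63488142 scored 16.01 and 23.6 and lay 1596 bp from a control PPS. The chromosome 19 site, 26167831 to 26167902, scored 46.33 in NMDA replicate 2 and 16.01 in NMDA replicate 3, percentiles of 99.9 and 93.0. A PPS of control replicate 3 came within 143 bp of it.

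On chromosome 11, positions 87890011 to 87890048 scored 14.76 and 18.42 and were protected from ssRNase in both lists, 64 bp from a control PPS. The chromosome 20 site, 31310134 to 31310292, scored 15.39 and 11.49, also from ssRNase in both lists, and had control PPS 19 and 24 bp away in control replicates 2 and 3. Chromosome 16 from 1953931 to 1954026 scored 19.45 and 11.49 and was the one leader protected from both RNases in both lists. The chromosome 12 leader, 17688231 to 17688291, scored 11.03 and 18.42 and was 2435 bp from a control PPS. Leading sites therefore differed in their surroundings, from a control footprint 19 bp away to none within 2435 bp.

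In each NMDA list taken singly, most NMDA-only sites came from dsRNase alone. In NMDA replicate 2, 471 sites (76.0%) came from dsRNase alone, 108 (17.4%) from ssRNase alone and 41 (6.61%) from both. In NMDA replicate 3 the numbers were 333 (53.7%), 213 (34.4%) and 74 (11.9%). All PPS of NMDA replicate 2 were 79.0% dsRNase alone and 11.4% ssRNase alone, and those of NMDA replicate 3 were 46.3% and 37.1%. Relative to its own list, NMDA replicate 2 thus gave more ssRNase footprints at NMDA-only sites, and NMDA replicate 3 gave more dsRNase footprints there. In the mixed pairings that involve NMDA replicate 2, ssRNase alone accounted for 8.47% and 12.5% of its sites. For NMDA replicate 3, dsRNase alone stood at 427 of 796 sites (53.6%) shared with control replicate 3 alone and at 320 of 842 shared with control replicate 2 alone, so its share at NMDA-only sites was matched in a mixed pairing.

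Agreement on the RNase was partial. Both lists named dsRNase alone at 299 sites (48.2%) and ssRNase alone at 76 (12.3%), and 103 sites had both RNases in at least 1 list. At 142 sites (22.9%) the lists named opposite RNases, 118 of them with dsRNase in NMDA replicate 2 and ssRNase in NMDA replicate 3, and 24 the other way round. At least 1 RNase was thus common to both lists in 77.1% of NMDA-only sites. This share was 75.9% for control-only sites and ran from 73.6% to 84.7% in the mixed pairings. Sites with dsRNase alone in NMDA replicate 3 were the shorter ones. Their median was 58 bp where NMDA replicate 2 also had dsRNase alone. It was 59 bp both where that list had ssRNase alone (24 sites) and where it had both RNases (10 sites). Medians were 68.5 bp for ssRNase alone in both lists and 72 bp where NMDA replicate 2 had dsRNase and NMDA replicate 3 had ssRNase.

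Control footprints were usually close by. The median gap from an NMDA-only site to the nearest control PPS on the same strand was 357.5 bp, where 1 means the next base. The 95% interval of this median, from order statistics over sites, was 269 to 463 bp and treats sites as independent, which clustered sites are not. A control PPS lay within 100 bp of 188 sites (30.3%), within 1 kb of 410 (66.1%) and within 10 kb of 572 (92.3%). Both control lists had a PPS within 1 kb at 256 sites (41.3%), exactly 1 did at 154 and neither did at 210 (33.9%). The median gaps to control replicates 2 and 3 taken singly were 775 and 799.5 bp, so neither control list was the nearer one as a rule.

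These distances resembled those of the other pairings to the lists that lacked their sites. Control-only sites were a median of 442 bp from the nearest NMDA PPS. Mixed pairings lay between 296.5 bp, for control replicate 2 with NMDA replicate 3, and 589.5 bp, for control replicate 3 with NMDA replicate 3. A gap over 10 kb occurred at 48 NMDA-only sites (7.74%), 58 control-only sites (9.91%) and 4.51% to 11.2% of sites in mixed pairings. Gaps over 100 kb were found at 16 NMDA-only sites and 10 control-only sites, and at 10 to 13 sites in each mixed pairing.

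**Figure D4:**
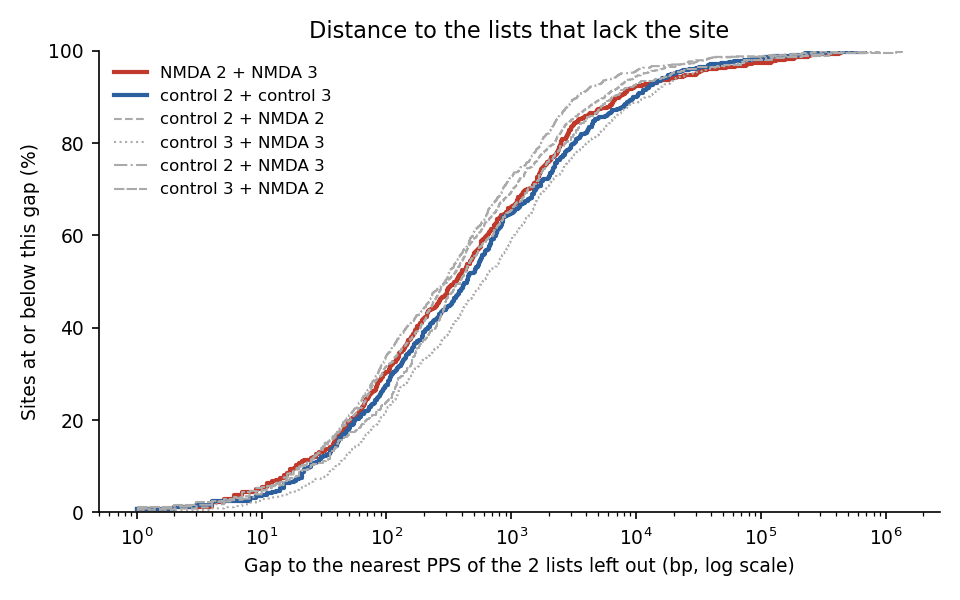
Cumulative share of sites (y axis, percent) by gap in bp to the nearest PPS of the 2 lists that lack the site (x axis, log scale), one line per pairing. The NMDA-only line (red) crosses 50% at 357.5 bp, between the lowest and highest medians of the other pairings, 296.5 and 589.5 bp.

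Scores of the most isolated NMDA-only sites ranged from low to high. Chromosome 12 from 4112389 to 4112461 was 482384 bp from any control PPS, and it scored 5.61 in both lists. Chromosome 19 from 9112033 to 9112097 was 454523 bp away, with scores of 6.82 and 5.61 and only 10 shared bases. Chromosome 18 from 44029931 to 44029990 was 438467 bp away and scored 7.43 and 7.0, above the medians of the 620. Among the 16 sites beyond 100 kb, chromosome 18 from 36161898, singled out after its values were seen, scored 11.49 and 10.33 at 279821 bp from control, percentiles of 85.2 and 80.9. Among all 48 sites farther than 10 kb the median scores were 5.61 and 5.74, against medians of 6.82 in both lists over the 620. The 188 sites within 100 bp of a control PPS had medians of 7.43 and 6.82.

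Some sites met the rule by a few bases. The 2 NMDA footprints shared 1 bp on chromosome 18 from 83472003 to 83472120 and on chromosome 16 from 77302839 to 77302925, and 2 bp on chromosome 16 from 61019001 to 61019084. In 10 sites they shared 5 bp or less. A control PPS stood on the very next base at 4 sites, among them chromosome 12 from 13861122 to 13861182, chromosome 12 from 52031583 to 52031636 and chromosome 18 from 2097854 to 2097959, and within 10 bp at 34. Just outside, 19 sites of both NMDA lists were dropped for a control overlap of 10 bp or less. The smallest such overlaps were 1 bp on chromosome 11 from 87970771 to 87970875 and 2 bp on chromosome 11 from 87949705 to 87949816 and on chromosome 17 from 63521737 to 63521870, in each case with a PPS of control replicate 2.

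NMDA-only sites were clustered about as much as those of other pairings within 10 kb, and less than any of them within 1 kb. Another NMDA-only site lay within 10 kb of 250 of them (40.3%), within 1 kb of 65 (10.5%) and within 50 kb of 384 (61.9%). For control-only sites the shares were 34.2% within 10 kb, 14.02% within 1 kb and 52.8% within 50 kb. Mixed pairings ranged from 33.4% to 47.9% within 10 kb, the highest being the pairing with the most sites. Within 1 kb they ranged from 13.1% to 17.3% and within 50 kb from 52.0% to 69.2%. The share of NMDA-only sites within 1 kb was thus the lowest of all pairings. The 250 clustered sites formed 101 runs, and 12 of the runs had at least 4 sites. In 100 kb windows, 390 of 1748 windows with any PPS held an NMDA-only site, 266 of them exactly 1, and 152 also held a control-only site. Those 152 windows contained 282 of the 620 NMDA-only sites (45.5%).

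The few windows with 5 or more NMDA-only sites numbered 13 and held 92 sites (14.8%). Only 5 windows had as many control-only sites. Chromosome 17 from 75300001 to 75400000 and from 75500001 to 75600000 each had 12 NMDA-only sites. The former also held 7 control-only sites, and its PPS numbered 104 and 79 in control against 126 and 152 with NMDA. The latter held 6 control-only sites, with 54 and 40 PPS in control and 85 in each NMDA list. Chromosome 16 from 77200001 to 77300000 came next with 8 NMDA-only sites and 1 control-only site, and 22 and 21 control PPS stood beside 48 and 54 NMDA PPS. By the rule, these counts hold each NMDA-only site in the NMDA lists alone. Without PPS of NMDA-only and control-only sites they were 97 and 72 against 114 and 140 in the first window. The second had 48 and 34 against 73 in each NMDA list, and the chromosome 16 window had 21 and 20 against 40 and 46. The NMDA lists thus had the higher counts in all 3 windows with those PPS left out. NMDA-only sites made up 4.60%, 6.52% and 7.21% of all sites in them. The chromosome 17 windows repeat each other in part. Of their NMDA-only sites, 10 paired across them as look-alikes of the same length, scores and RNase, as described below. These windows are thus not separate observations. Since the windows were picked for their NMDA-only sites, these counts are descriptions.

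Neighbouring NMDA-only sites less than 10 kb apart formed runs. The longest had 7 NMDA-only sites each, on chromosome 16 from 77189871 to 77206039, chromosome 16 from 83825302 to 83847660 and chromosome 17 from 75377155 to 75412160. PPS of the NMDA-only sites that make up a run are in the NMDA lists by selection, so they and PPS of control-only sites were left out of the counts that follow. In the run that starts at 77189871, 2 and 6 other PPS remained in control and 6 and 7 with NMDA. In the run that starts at 83825302 these were 9 and 13 against 21 and 20. The chromosome 17 run had 56 and 46 against 55 and 75. The NMDA lists were both above the control lists in the run at 83825302, whereas the treatments overlapped or met in the others. The tightest run of 5 spanned 2358 bp on chromosome 17 from 37617368 to 37619725, with 5 and 4 other PPS in control and 5 and 8 with NMDA. It was singled out after its values were seen.

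Some NMDA-only sites came in copies. Within a list, PPS with the same length, score, RNase and number of peaks recurred at constant distances. A distance was counted when at least 6 such PPS pairs showed it over the 4 lists, and 16 distances of at least 1000 bp did. On chromosome 17 the distance of 198561 bp alone joined 71 PPS pairs, 13 and 11 of them in control against 24 and 23 with NMDA. Through these distances 18 NMDA-only sites (2.90%) formed 9 pairs of look-alikes, 10 of the sites on chromosome 17 between 75305459 and 75542575. An example is the site of 65 bp from 75323404 to 75323468, which scored 5.61 and 8.35 and lay 569 bp from a control PPS. Its look-alike from 75521965 to 75522029 had the same length, scores and gap. Members of such a pair are not separate observations. Among control-only sites, 14 were paired in this way. Keeping the first of repeated copies, added after seeing the data, hardly changed the clustering. The share with a neighbour within 10 kb was then 39.6%, against 40.3% with all copies.

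PPS around NMDA-only sites, which the rule did not use, had higher values in the NMDA lists, most clearly against control replicate 3. This is a difference that 4 lists cannot carry past a threshold. This count took PPS within 5 kb of an NMDA-only site and left out those belonging to NMDA-only or control-only sites. Near an NMDA-only site lay 236 of every 1000 such PPS of control replicate 2 and 212 of control replicate 3. The same count was 245 for NMDA replicate 2 and 244 for NMDA replicate 3. Both NMDA lists were above both control lists. Control lists averaged 224 ± 17.4 and NMDA lists 245 ± 0.486 per 1000 (SD, n = 2), a ratio of 1.09, with an exact two-sided permutation p = 0.33, the smallest possible here. The NMDA mean was higher on 6 of the 7 chromosomes, by 51.0 per 1000 on chromosome 17 and 38.6 on chromosome 16. Gains on chromosomes 11, 12, 19 and 20 were 3.69 to 16.2. On chromosome 18 the NMDA mean was lower by 2.48. Both NMDA lists exceeded both control lists on chromosomes 16 and 17 only. Elsewhere at least 1 NMDA list was below control replicate 2. Without chromosome 17, a setting added after seeing the data, the NMDA mean was higher by 13.4. The difference of 20.8 per 1000 rested in part on 1 list, since it was 8.46 without control replicate 3 and 33.1 without control replicate 2. When the rule itself was applied with 1 control list, the direction turned, to -57.8 without control replicate 2 and -44.4 without control replicate 3. That rule also leaves out of the count every site held by the remaining control list alone. Site by site, with each list's count divided by its number of countable PPS, 334 NMDA-only sites (53.9%) had more flanking PPS from the NMDA lists and 243 (39.2%) had more from the control lists. The other 43 had no flanking PPS. Neighbouring sites share flanking PPS and look-alike sites repeat them, so this tally over sites is a description.

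A ratio of this size also occurred in the pairing of control replicate 2 with NMDA replicate 3, and in no other. Around control-only sites the 2 control lists averaged 188 ± 17.02 and the NMDA lists 176 ± 1.57 per 1000 (SD, n = 2), with an exact two-sided permutation p = 0.667. There the lists that own the sites exceeded the others by a ratio of 1.07. This ratio, own lists over lists left out, was 1.10 for control replicate 2 with NMDA replicate 3. In the other mixed pairings it was 1.06, 0.986 and 1.003. Between 1 and 50 kb the width changed the NMDA ratio little, to 1.06 at 1 kb and 1.07 at 50 kb, both with exact p = 0.33.

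**Figure D5:**
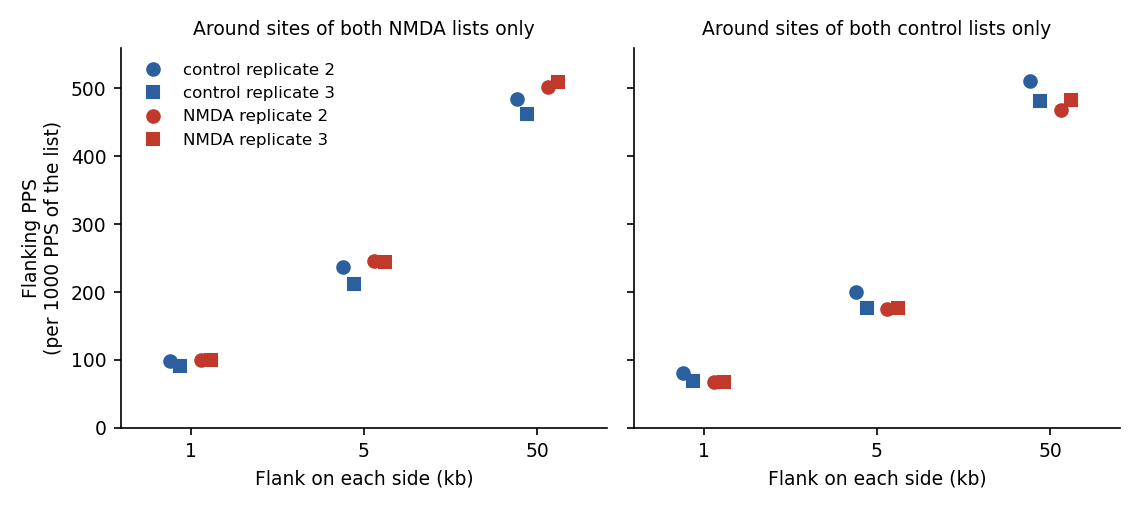
PPS near NMDA-only sites (left) and control-only sites (right) within 1, 5 or 50 kb, per 1000 PPS of the list, leaving out PPS of both kinds of site; each point is 1 list. On the left both NMDA lists lie above both control lists at each width, for example 245 and 244 against 236 and 212 at 5 kb.

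Opposite-strand footprints were rare at these sites. Minus-strand PPS of control replicate 2 overlapped 7 NMDA-only sites (1.13%), while those of control replicate 3 overlapped 0 of the 620. NMDA replicate 2 had such PPS at 4 sites and NMDA replicate 3 at 10. The minus strands of the same chromosomes held 9721, 5810, 5427 and 13653 PPS in these lists. A control footprint labelled with the other strand was therefore present at 7 of the 620 sites.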

How the data were processed

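Protein interaction profile sequencing of 16 libraries was summarised by the authors as 4 deposited lists of PPS, 1 per replicate. Per the submitters' processing notes, cutadapt 1.2.1, TopHat2 2.0.10 and the rn6 genome were used, in no stated role. Per the labels, the names of the lists point to CSAR and FDR at 5%. The deposited score, whose scale is not stated, was ranked within lists, except that sites to be named and the lower-score counts used the lower raw score of both NMDA lists.

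PPS sharing 1 bp were joined into sites. Gaps, percentiles, flanks of 5 kb, neighbours within 10 kb and 100 kb windows were computed with Python 3.11.15, numpy 2.4.6, pandas 2.3.3 and scipy 1.17.1. A PPS was counted in a flank by its midpoint. Flanks were compared by exact permutation over the 4 lists. Matplotlib 3.10.9 drew the plots. The code was checked on 2000 simulated sites and gave 100% of the list patterns. Members, lists of regions and tests were chosen with earlier results of these data known, including the 7 chromosome strands, picked because lists share PPS elsewhere. Regions were named by rank: highest lower score per chromosome, longest, farthest, nearest, fewest shared bases, densest windows and longest runs. No rn6 sequence or annotation was used here, so no gene is named. Structure profiles and read data were not analysed here.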

Additional observations from a re-analysis of the deposited data

How the results depend on the processing

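Presence in 2 lists per treatment, unknown read depth and scores near the reporting limit restrict what these lists can show. Joining PPS only when 50% of the shorter was shared moved the median gap to a control PPS to 212 bp. Joining across gaps of up to 50 bp gave a length of 71 bp, a gap of 701 bp and 35.6% of sites with a neighbour within 10 kb. Joining only PPS above their list's median score gave 258 NMDA-only sites, of 89.5 bp, with a gap of 540.5 bp. Of these, 34.1% had a neighbour and 81.4% shared an RNase. Their lower score percentile of 73.2 (24.0 as reported) was raised by the filter itself. The filter also removed low-scoring control PPS, so these sites are not a subset of the 620. Among the 620, both scores ranked above the middle of their list in 126. With strand ignored, which brings in the minus-strand PPS of these chromosomes, there were 1038 sites, a percentile of 24.7 and 81.0% sharing an RNase. PPS holding a dsRNase peak gave a gap of 522 bp. Those holding an ssRNase peak gave 254 sites of 83 bp, a percentile of 30.9, a gap of 634 bp and 22.8% with a neighbour. Neighbours within 1 kb and 50 kb stood at 10.5% and 61.9%. Without chromosome 17, an alternative chosen after seeing the data, 35.3% had a neighbour. The flank difference was 29.8 per 1000 (exact permutation p = 0.667) for scores above the median and 12.2 (exact p = 1) with strand ignored. Thinning to the smallest list gave 546 sites, and keeping the first of repeated copies (added after seeing the data) 611. Sharing of an RNase has no meaning when 1 RNase is selected and was not computed there or without an NMDA list.

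Leaving out 1 list at a time and applying the rule to the others gave 1082 to 3847 sites, 43 to 73 bp, percentiles of 24.0 to 30.9, gaps of 536.5 to 673 bp, 55.0% to 75.4% with a neighbour and 74.8% to 75.9% sharing an RNase. The flank difference, 20.8 per 1000 as reported, ran from -57.8 without control replicate 2 and -44.4 without control replicate 3 to 60.4 without NMDA replicate 3. By construction the rule with 1 control list removes every PPS private to that list from the count. The same holds for the rule with 1 NMDA list, where the sites private to that list are also the centres. With the 620 sites kept and a list left out of the flank comparison (added after seeing the data), the difference was 33.1 without control replicate 2, 8.46 without control replicate 3, and 20.4 and 21.1 without NMDA replicates 2 and 3. With the replicate number as a replicate block the difference was 20.8 with an exact p = 0.5, the smallest for 2 pairs, and the labels do not say that the numbers pair cultures.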
